A study of Rattus norvegicus with 5 samples.

Results

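In-Cl and DPN, synthetic ligands of the estrogen receptors, were compared in rat vascular smooth muscle cells kept under hypoxia, each at 0.1 µM. The comparison covers 8807 genes of the 17048 rows in each table. A row was kept when its adjusted read count (the deposited log2 value turned back to the linear scale) averaged 100 or more over the 5 libraries. Each symbol kept its row with the highest mean, which left out 58 further rows, and 7 genes were set aside as described below. The abundance limit did not use the difference between the ligands, but the 7 genes set aside were named with earlier results of these data known, and all 7 differ between the ligand libraries. The cells were cultured on coated plastic, and 1 RNA-seq library was made for each of 5 conditions. The control library was neither hypoxic nor treated, the hypoxia library had low oxygen for 24 h and no ligand, and the other 3 had the same hypoxia after pretreatment with 0.1 µM In-Cl, 0.1 µM DPN or 10 nM E2. The strain, vessel, passage and oxygen level are not stated. With 1 library per condition there is no replicate check and no p-value, and every statement below compares libraries.

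Estrogen receptors alpha and beta are transcription factors that bind steroid hormone, recruit coactivators or corepressors, and act on genes through estrogen response elements or through other factors bound to DNA. E2 (estradiol) binds both receptors, and DPN, whose scaffold is a diarylpropionitrile, has a preference for the beta form. In-Cl has, by the title of the study, an indazole scaffold, so the matched pair differs in scaffold. The study asked about ligand effects on cyclooxygenase-2, which makes prostaglandin precursors in stressed vessel wall cells. Vascular smooth muscle cells contract through smooth muscle actin and myosin, and in culture they also make and remodel matrix.

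The identity of the cells was checked first. Acta2, Tagln and Cnn1, which encode proteins of the contractile apparatus, were abundant in all 5 libraries, with Acta2 at 108399 or more, while desmin (Des) averaged 22.6. Of the markers of other cell types, 1 of 7 endothelial genes (Tek), 1 of 7 leukocyte genes (Cd14), 3 of 6 fibroblast genes, 1 of 5 epithelial genes (Krt8) and 0 of 5 adipocyte genes reached the mean of 100. The defining genes Cdh5, Kdr and Emcn of endothelium, Itgam and Cd3e of leukocytes, Dpt of fibroblasts and Adipoq of adipocytes were at 0 in every library. The deposited values correspond to about 22050300 reads with In-Cl and 20969000 with DPN, and to between 20174400 (E2) and 24836200 (control) in the other 3. Rows of ribosomal RNA held 3.65% of the In-Cl library, 4.67% of the DPN library, 3.44% of the E2 library, 4.56% of hypoxia and 3.92% of control. The 7 genes set aside (Dennd5a, St5, Nrip3, Akip1, Tmem9b, Ascl3 and LOC499240) were low in the DPN library alone, with In-Cl above DPN by between 1.76 and 7.72 on the log2 scale. With them kept in, 15 genes in place of 8 stood at least 2-fold higher with In-Cl.

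The 2 ligand libraries were close to each other for most genes. The log2 difference, In-Cl minus DPN, had a median of -0.01 over the 8807 genes, and 7974 of them (90.5%) lay within 0.32 on either side of 0. With In-Cl 77 genes stood at least 1.5-fold higher (0.874% of the genes compared) and 28 at least 1.5-fold lower (0.318%), together 105 (1.19%). At 2-fold the counts were 8 higher (0.0908%) and 3 lower (0.0341%). A 95% counting interval, computed from approximate reads and covering counting error only, lay above 0 for 1669 genes (19%) and below 0 for 1795 (20.4%), and it left out 0 for each of the 105 genes past 1.5-fold. Counting error is only part of the error here, since the spread between cultures was not measured.

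Genes past 1.5-fold were mostly of low abundance. Among 1155 genes with a mean adjusted read count of 100 to 200, 34 were higher and 18 lower, which is 4.5% of them. Among the 3628 genes between 500 and 2000 the share was 0.386%. At 2000 and above 7 genes were higher and 0 lower, and 5 of those 7 encode very large proteins, a group described below. Just outside the abundance limit stood Cd80 (difference 0.22) and Acvr1b (0.54), and just inside it Zfp418 (0.30) and Rgs17 (-0.63).

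**Figure D1:**
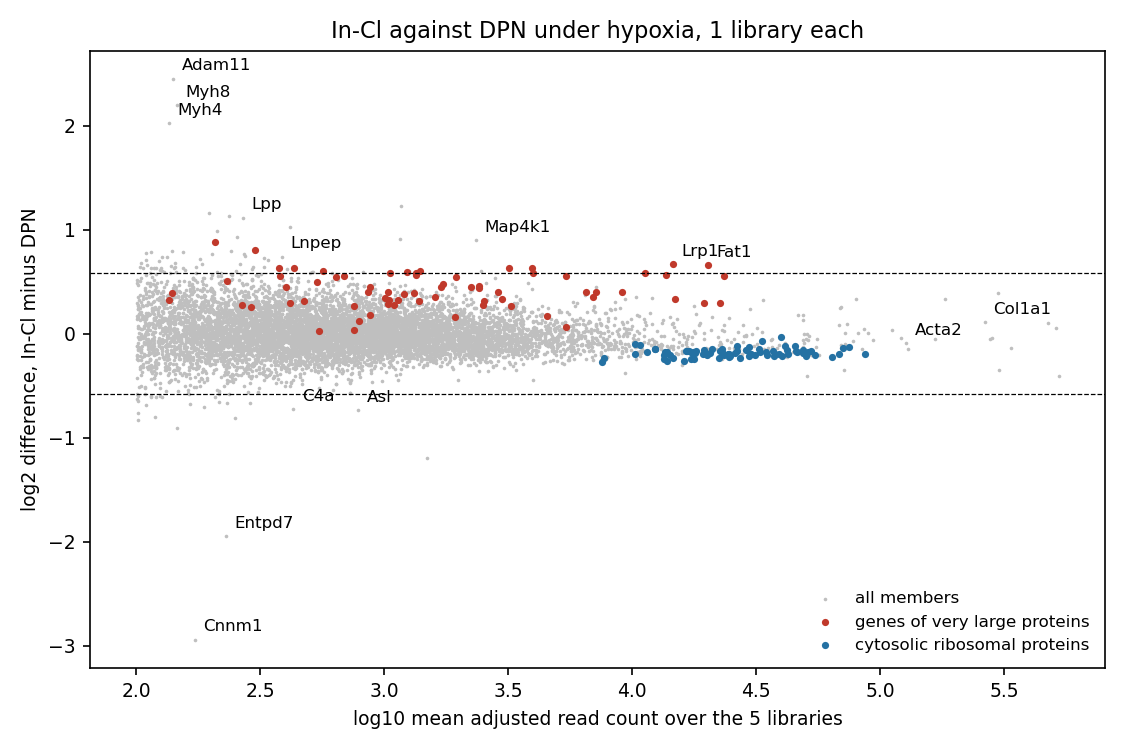
Each point is 1 of the 8807 genes, with log10 of its mean adjusted read count over the 5 libraries on the horizontal axis and the log2 difference, In-Cl minus DPN, on the vertical axis. Dashed lines mark 1.5-fold. Cnnm1 (-2.94) and Entpd7 (-1.95) stand far below the rest, Adam11, Myh8 and Myh4 stand above 2, and the red points (genes of very large proteins) lie above the blue points (cytosolic ribosomal proteins).

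The 77 higher and 28 lower genes were chosen by this difference, so the position of the other libraries is a description only. Among the 77, the median stood 0.52 above hypoxia in the In-Cl library and -0.19 from hypoxia in the DPN library, with E2 at 0.10. In-Cl was the highest of the 5 libraries for 62 of them and DPN the lowest for 38. Among the 28 lower genes the medians against hypoxia were -0.42 (In-Cl), 0.21 (DPN) and -0.12 (E2). In-Cl was the lowest library for 18 of these and DPN the highest for 15. Over all 8807 genes 158 stood 1.5-fold above hypoxia with In-Cl (1.79%) and 50 below (0.568%), while DPN had 38 above (0.431%) and 29 below (0.329%), and these 2 comparisons share the hypoxia library.

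The lowest values with In-Cl belonged to 2 neighbouring genes of rat chromosome 1. Cnnm1, a member of the CNNM family of membrane proteins linked to magnesium transport, had an adjusted read count of 35.4 with In-Cl, 279 with DPN, 74.4 with E2, 249.6 in hypoxia and 223 in the control. The In-Cl and E2 libraries were low and the other 3 lay between 223 and 279. The difference was -2.94 (interval -3.52 to -2.47), which is 7.70-fold. Entpd7, an enzyme that removes phosphates from nucleotides inside cells, had 87.7 with In-Cl, 342 with DPN, 113 with E2, 300.3 in hypoxia and 303 in the control. Its difference was -1.95 (interval -2.32 to -1.62), and again In-Cl and E2 were the low libraries. Between them in the file stand 3 genes. Got1 (-0.18) and Slc25a28 (0.01) did not pass 1.5-fold, and the homeobox gene Nkx2-3, which is under the abundance limit, had 5.84 with In-Cl and 50.5 with DPN (-2.91). Hpse2, shortly before Cnnm1 and also under the limit, had 3.91 against 21.0 (-2.16). Kcnip2, which stands between Hpse2 and Cnnm1, was almost undetected, with 0 with In-Cl and 0.01 with DPN. Whether the RNA comes from both genes or from transcripts that run over them was not tested.

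The promoters of this pair are shown because the genes are neighbours that were low in the same libraries. They are RefSeq sequences of build GRCr8, from 250 bases before the gene's start to 50 after it, on the plus strand, for Cnnm1 at chr1:252245373-252245672 and for Entpd7 at chr1:252508344-252508643. Capitals mark the estrogen receptor half-site, searched as GGTCA or TGACC, which are the same site read on the 2 strands.
Cnnm1: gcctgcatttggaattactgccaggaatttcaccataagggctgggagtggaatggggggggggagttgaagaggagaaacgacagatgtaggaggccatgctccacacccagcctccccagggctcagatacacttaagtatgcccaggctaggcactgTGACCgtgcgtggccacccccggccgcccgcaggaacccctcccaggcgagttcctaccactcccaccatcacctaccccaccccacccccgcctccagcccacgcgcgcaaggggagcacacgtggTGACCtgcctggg
Entpd7: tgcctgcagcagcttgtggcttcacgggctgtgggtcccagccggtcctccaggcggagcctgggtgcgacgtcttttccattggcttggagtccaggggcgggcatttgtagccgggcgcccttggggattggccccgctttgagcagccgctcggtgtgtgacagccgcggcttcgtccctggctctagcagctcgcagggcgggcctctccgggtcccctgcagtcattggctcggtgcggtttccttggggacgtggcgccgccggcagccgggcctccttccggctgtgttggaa
The Cnnm1 window held 2 matches and the Entpd7 window 0. A half-site was present in 40.2% of the 27457 genes with a promoter in the table, taking 1 promoter a gene, in 36.6% of the 6830 promoters matched to the genes compared, in 32.8% of 61 higher genes and in 41.7% of 24 lower genes. The full element GGTCANNNTGACC was found in 7 of the 27457 and in 0 of the 6830. A match is a description of the letters in this window and not a binding site.

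Adam11, a membrane protein of the ADAM family that lacks protease activity, had the largest difference upward. It had 297 with In-Cl, 53.5 with DPN, 192 with E2, 77.6 in hypoxia and 83.3 in the control. The In-Cl and E2 libraries were high and the DPN library was the lowest. The difference was 2.45 (interval 2.03 to 2.92).

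Sarcomeric myosin heavy chains, the motor proteins of striated muscle, followed. Myh8, the perinatal form, had 240 with In-Cl, 51.4 with DPN, 78.7 with E2, 176 in hypoxia and 183 in the control, a difference of 2.20 (interval 1.76 to 2.68). Myh4, a fast skeletal form, had 212, 51.4, 60.1, 169 and 186 in the same order, a difference of 2.02 (interval 1.58 to 2.51). For both genes the DPN and E2 libraries were low, and In-Cl was the highest, next to control and hypoxia. Myh3, the embryonic form, was 0.99 higher with In-Cl than with DPN (289 against 146). Myh2 (0.14) and Myh1 (0.36), which stand between Myh3 and Myh4 in the file and on chromosome 10, did not pass 1.5-fold. These genes are close copies of each other and the treatment of reads that fit several copies is not stated, so the split between them is uncertain.

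The promoters of Myh4 and Myh8 are shown because these adjacent genes had the same order of libraries. They come from the same RefSeq table, on the plus strand, at chr10:52421898-52422197 and chr10:52462259-52462558. Capitals mark the E-box, searched as CANNTG, which reads the same on both strands and is a motif bound by myogenic regulators.
Myh4: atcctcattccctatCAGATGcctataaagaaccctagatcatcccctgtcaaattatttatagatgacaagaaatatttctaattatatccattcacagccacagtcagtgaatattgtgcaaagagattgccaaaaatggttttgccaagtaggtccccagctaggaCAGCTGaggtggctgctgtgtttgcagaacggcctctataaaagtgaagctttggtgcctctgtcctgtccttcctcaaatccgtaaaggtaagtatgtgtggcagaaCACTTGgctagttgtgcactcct
Myh8: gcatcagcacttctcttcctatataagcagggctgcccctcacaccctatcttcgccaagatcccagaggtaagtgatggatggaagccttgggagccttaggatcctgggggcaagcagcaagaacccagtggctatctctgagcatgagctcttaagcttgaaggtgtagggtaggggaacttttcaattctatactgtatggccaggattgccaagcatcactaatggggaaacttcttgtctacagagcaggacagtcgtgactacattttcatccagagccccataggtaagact
Myh4 held 3 E-boxes and 1 CArG box (a serum response factor motif), and Myh8 held 0 of either. An E-box was present in 71.6% of the 27457 and in 60.4% of those of the genes compared. A CArG box was present in 1.64% and 1.26%.

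The other genes with the largest differences upward included cytoskeletal, RNA decay and signalling genes. Lpp, a LIM protein of focal adhesions that is abundant in smooth muscle, had 438 with In-Cl, 202 with DPN, 277 with E2, 236 in hypoxia and 192 in the control (difference 1.12, interval 0.87 to 1.37). Myot, a Z-disc protein, had 330 with In-Cl and 147 with DPN (1.16), and Dcp2, the enzyme that removes the cap from messenger RNA, had 389 and 177 (1.13). Myot and Dcp2 have adjacent rows, and In-Cl was the highest library for both. Ubn2, a subunit of a histone chaperone complex, had 423 with In-Cl against 222 with DPN (0.93).

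Map4k1 and Rasgrp4, signalling genes best known from blood cells, are near neighbours on chromosome 1. Map4k1 had 3044 with In-Cl, 1634 with DPN, 2358 with E2, 2340.1 in hypoxia and 2363 in the control. The control, hypoxia and E2 libraries were within a narrow range, In-Cl was above it and DPN below it. The difference was 0.90 (interval 0.81 to 0.99). Rasgrp4 had 1500.3, 797, 1161, 1157 and 1173 in the same order, a difference of 0.91. The rows are adjacent and their values kept nearly the same proportion in all 5 libraries. Whether the reads come from both genes or from RNA that runs over them was not tested. Ggn, 3 rows further, was 0.71 higher with In-Cl. The leukocyte genes Itgam and Cd3e were at 0 in these libraries, Ptprc had 8.87 with In-Cl and 7.48 with DPN, and Cd14 had 212 and 164 (0.37, interval 0.07 to 0.68). The part of leukocyte RNA in these values was not tested.

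In all, 15 of the 105 genes past 1.5-fold stood within 5 rows, in file order, of another that differed in the same direction. They form 6 runs of neighbours, with 10 genes higher and 5 lower. The same count was not made for genes in general, so no excess of neighbours is claimed. Besides the runs of Map4k1, Cnnm1, Myh3 and Dcp2 there were Dync1h1 with an uncharacterised neighbour (RGD1305298) and C4a with Notch4 and Ager. Between C4a and Notch4 stands 1 row in the file, but 11 protein-coding genes in the RefSeq order of build GRCr8. Without these 15 genes the counts past 2-fold were 3 higher and 1 lower.

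Among genes lower with In-Cl, several act in metabolism, immunity and signalling. Asl, an enzyme of the urea cycle that also recycles citrulline for nitric oxide synthesis, had 581 with In-Cl, 966 with DPN, 583 with E2, 969.8 in hypoxia and 828 in the control (difference -0.73, interval -0.88 to -0.58). Here In-Cl and E2 were low and DPN was level with hypoxia. C4a, a complement component, had 423, 699.9, 334, 452 and 238 in the same order (-0.72), so the DPN library was high. C4b, a near copy, had only 14.8 with In-Cl and 12.9 with DPN, and reads of the pair cannot be assigned with certainty. Notch4, a receptor best known from endothelium, had 183, 322, 169, 443 and 129 (-0.81), with all 3 ligand libraries below hypoxia. The endothelial genes Cdh5, Kdr and Emcn were at 0 in every library, Tek was level (-0.01), and Pecam1 had 6 reads with In-Cl and 18 with DPN. The part of endothelial RNA in the Notch4 values was not tested.

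Cyp21a1, a steroid hydroxylase, had 109.5 with In-Cl and 191 with DPN (-0.80). Wwox, an oxidoreductase, had 80.9 and 145 (-0.83). Rgs2, which shuts off signalling by G proteins downstream of vasoconstrictor receptors, had 138 with In-Cl, 226 with DPN, 228 with E2, 186 in hypoxia and 161 in the control (-0.70, interval -1.02 to -0.39). For Rgs2 the In-Cl library was the lowest of the 5. Further down the ranking were Snrpa1, a spliceosome protein (-0.57), Polr2i, a subunit of RNA polymerase II (-0.57), and Cbr1, a carbonyl reductase (-0.45), none of which reached 1.5-fold. Rasl2-9 (-0.55) is a close copy of the gene of the Ran GTPase, so its reads are uncertain.

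**Figure D2:**
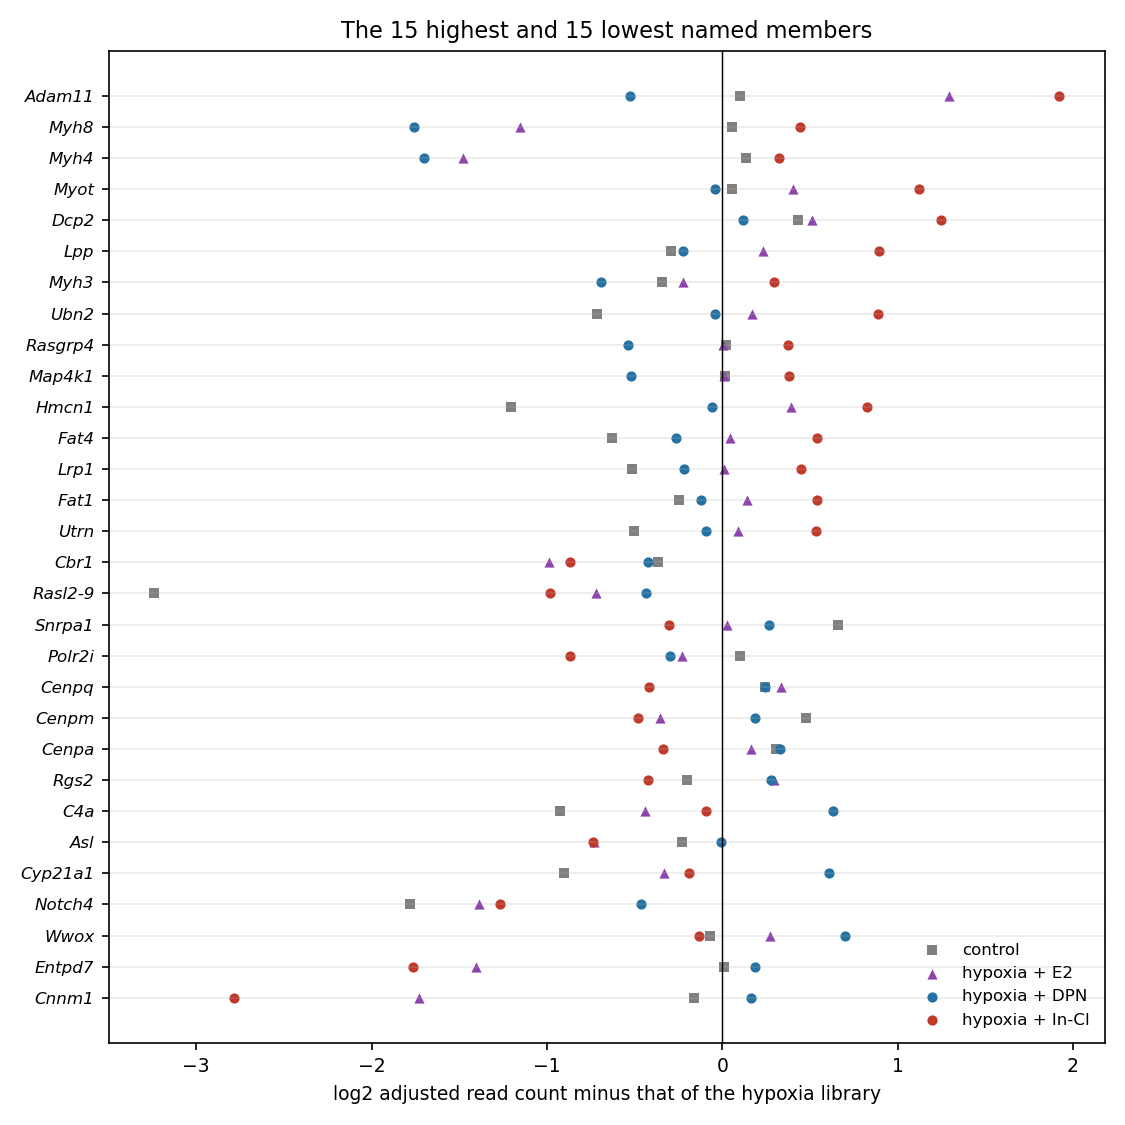
For the 15 genes highest and the 15 lowest by the bound of the counting interval nearest 0, the horizontal axis gives the log2 difference of each library from the hypoxia library, and each symbol is 1 library. The red points (In-Cl) and blue points (DPN) lie apart by construction, and the purple points (E2) lie on the side of In-Cl for Adam11, Cnnm1, Entpd7 and Asl and on the side of DPN for Myh4 and Myh8.

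The 2 ligands stood on opposite sides of hypoxia, each by 0.32 or more on the log2 scale, for 10 genes. In-Cl was above and DPN below for 7 of them: Map4k1, Rasgrp4, Myh4, Myh8, Adam11, Cit and Sema4b. Map4k1 with Rasgrp4 and Myh4 with Myh8 are the neighbours described above, so these may not be separate cases. Cit, a kinase of the cleavage furrow, had 271 in hypoxia, 345 with In-Cl and 203 with DPN. Sema4b, a semaphorin, had 125 in hypoxia, 159 with In-Cl and 94.6 with DPN. The reverse held for Cenpa, the histone H3 variant of centromeres, which had 266 in hypoxia, 210.1 with In-Cl and 335 with DPN, and for the uncharacterised LOC102723236 and RGD1562747.

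The estrogen receptors themselves were under the abundance limit. Esr1 (the alpha receptor) had 16 reads with In-Cl and 3 with DPN (difference 1.97, interval 0.51 to 4.74), with 4 in the control, 9 in hypoxia and 12 with E2. Esr2 (the beta receptor) had 15 with In-Cl and 22 with DPN (-0.61, interval -1.70 to 0.36), and Gper1, a membrane estrogen receptor, had 3 and 6 (-0.89, interval -3.73 to 1.13). These counts are too small to rank the receptors, and for Esr2 and Gper1 no difference was detectable at this depth.

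Coregulators of the receptors were higher with In-Cl in 8 of the 11 compared. By interval 7 were above 0 (63.6%, beside 19% of all genes) and 1 below, with 0 past 1.5-fold and a median of 0.23 (median of all genes -0.01). In the same comparison genes of very large proteins, described below, were above 0 in 69 of 69 and cytosolic ribosomal proteins below 0 in 79 of 79. None of the 11 is on the list of very large proteins, and the part of RNA quality or transcript length in their values was not tested. Ncoa2, a p160 coactivator, had 455 with In-Cl, 345 with DPN, 364 with E2, 283 in hypoxia and 272 in the control (0.40, interval 0.19 to 0.61). Med1, a Mediator subunit that binds nuclear receptors, had 1239 with In-Cl and 955 with DPN (0.38). The corepressor Ncor1 was 0.33 higher, and the arginine methyltransferase Prmt1 was lower (-0.23, interval -0.30 to -0.16). Estrogen target genes showed no common direction. Of 15, 9 were above 0 and 6 below, with a median of 0.03. By interval 3 lay each way (20%, beside 19% above and 20.4% below over all genes). Stc2, a secreted glycoprotein, was lowest (640 with In-Cl, 868 with DPN, -0.44) and the transcription factor Mybl1 was highest (374 against 291, 0.36). Targets such as Ccnd1 (0.02), Myc (0.03) and Ctsd (-0.03) were nearly level.

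The aryl hydrocarbon receptor, a ligand-activated factor that meets many planar compounds, was included as a second receptor system. Ahr had 1906 with In-Cl, 1469 with DPN, 1395 with E2, 1224 in hypoxia and 1015 in the control (0.38, interval 0.27 to 0.48), so all 3 ligand libraries were above hypoxia and In-Cl was highest. Its target Cyp1b1 had 1511 with In-Cl and 1255 with DPN (0.27), and Nqo1 928 and 801 (0.21). Of 7 genes in this list 5 were above 0 (48.4% of all genes were) and 4 by interval (57.1%, beside 19% of all genes), with 0 past 1.5-fold. As for the coregulators, whole classes of genes differed between these libraries. None of the 7 is on the list of very large proteins. The part of RNA quality or transcript length in their values was not tested, nor was activation of the receptor.

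Cyclooxygenase-2 did not separate the ligands. Ptgs2, its gene, had 218 with In-Cl, 222 with DPN, 306 with E2, 258 in hypoxia and 111 in the control. The difference between In-Cl and DPN was -0.02, and the interval of -0.30 to 0.26 leaves room for a difference of either sign within counting error. Ptges, the inducible prostaglandin E synthase, had 171 and 175 (-0.03, interval -0.35 to 0.28). Among 10 prostanoid genes 8 were below 0 (51.4% of all genes were), and the median was -0.09. By interval 2 were below (20%, beside 20.4% of all genes) and 1 above (10%, beside 19%). Ptges3 (-0.19) and the prostacyclin synthase Ptgis (-0.10) were the ones below by interval, and the prostaglandin receptor Ptger1 was above (0.33, interval 0.07 to 0.60). Ptgs1, which encodes the constitutive cyclooxygenase and is under the abundance limit, had 48 reads with In-Cl and 27 with DPN (0.71, interval 0.02 to 1.47).

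Genes of the hypoxia programme had median differences near 0 between the ligands, with members on both sides. Over 28 hypoxia response genes the median was -0.01. By interval 7 were above 0 (25%, beside 19% of all genes) and 4 below (14.3%, beside 20.4%). Over 22 glycolytic genes it was -0.0015, with 4 above by interval and 9 below (40.9%, beside 20.4% of all genes). In either list 0 genes passed 1.5-fold. Pgk1, a glycolytic kinase, had 84929.8 with In-Cl and 90774 with DPN, and Ldha, which makes lactate, 58089 and 60472. The exceptions in size were Hk2, the hexokinase bound to mitochondria, with 1855 with In-Cl, 1382 with DPN, 1596 with E2, 1450 in hypoxia and 301 in the control (0.42, interval 0.32 to 0.53), and Ndrg2, with 465 against 343 (0.44). Ndufa4l2, an inhibitor of respiratory complex I that is made in hypoxia, was 0.32 lower with In-Cl (442 against 552; it was at 0 in the control). Vegfa, the endothelial growth factor, was 0.14 higher.

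The contractile list stood below hypoxia by its median with both ligands, and 17 of its 26 genes compared were lower with In-Cl than with DPN. By interval 15 were below 0 (57.7%, beside 20.4% of all genes) and 5 above. The median was -0.10, and -0.05 after quantile normalization. The medians against hypoxia were -0.28 (In-Cl), -0.17 (DPN) and -0.05 (E2). Actg2, the enteric smooth muscle actin, had 136 with In-Cl, 205 with DPN, 199 with E2, 290.0 in hypoxia and 244 in the control (-0.585, interval -0.91 to -0.26), the only 1 of the 26 past 1.5-fold. It stands at the limit itself and fell short of it with the libraries centred on the median difference (-0.579), with a pseudocount of 10 (-0.555) and with equal totals without ribosomal RNA rows (-0.573). Cnn1 (calponin) had 4201, 4857, 6570.5, 6229 and 6699 in the same order (-0.21), and Tagln 71814, 79572, 89835, 94366 and 89090.5 (-0.15). In both genes the In-Cl library was the lowest and DPN the next lowest, while E2 was near hypoxia. Acta2, the main vascular smooth muscle actin, was -0.09 (interval -0.11 to -0.08), and Ppp1r14a, an inhibitor of myosin phosphatase, was -0.47. The split was reversed for Mylk, the myosin light chain kinase (712 against 517, 0.46), for the actin crosslinker Flna (0.33) and for Myocd, the coactivator of serum response factor that drives this programme (0.31, interval 0.06 to 0.55). In bulk RNA, fewer cells of a state and less RNA per cell cannot be told apart.

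**Figure D3:**
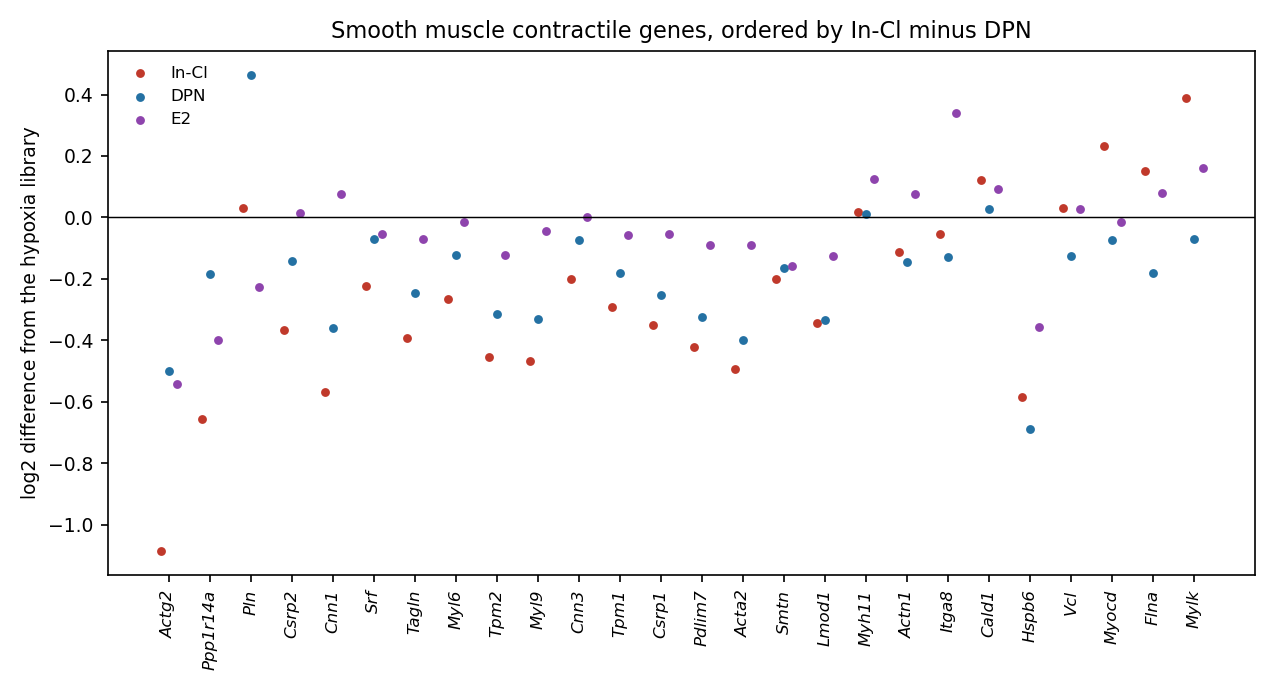
The vertical axis gives the log2 difference of the In-Cl (red), DPN (blue) and E2 (purple) library from the hypoxia library for 26 smooth muscle contractile genes, ordered from lowest to highest In-Cl minus DPN. Each point is 1 library, and most red points on the left lie below the blue ones, with Mylk, Flna and Myocd the reverse on the right.

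Of 22 genes of calcium handling 14 were above 0 and 7 below. By interval 10 were above (45.5%, beside 19% of all genes) and 4 below (18.2%, beside 20.4%). The median was 0.13, but 0.01 among members with a mean of 500 or more and 0.11 without the 3 members that are also on the list of very large proteins, a list that was higher as a whole. Cacna1c, the L-type calcium channel of smooth muscle, had 765 with In-Cl, 552 with DPN, 633 with E2, 580.2 in hypoxia and 574 in the control (0.47, interval 0.31 to 0.63). Itpr1, the inositol trisphosphate receptor, was 0.44 higher (2993 against 2208), and Atp2b4, a plasma membrane calcium pump, was 0.41 higher. Pln, the inhibitor of the calcium pump of the reticulum, was lower with In-Cl (87.7 against 119, -0.43, interval -0.85 to -0.02), and its control level was 350.4.

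Collagens stood mostly higher with In-Cl, and other matrix genes went both ways. Of 14 collagen chains 13 were above 0, 10 by interval (71.4%, beside 19% of all genes) and 0 below by interval, with a median of 0.16. Col11a1 had 41967 with In-Cl, 33548 with DPN, 39511 with E2, 29104 in hypoxia and 23804 in the control (0.32). Col27a1 was highest (0.51, interval 0.35 to 0.68), and Col1a1 (0.11) and Col3a1 (0.02) were nearly level. Fn1, fibronectin, had 357107 with In-Cl and 272707 with DPN (0.39), against 319619 in hypoxia. Fbn1, the microfibril protein fibrillin-1, had 17281 and 11713 (0.56), and Fras1, a basement membrane protein, was the 1 of 26 matrix glycoproteins past 1.5-fold (619.8 against 398, 0.64). Of the 26, 16 were above 0 and 10 below, with a median of 0.05 (0.10 after quantile normalization). By interval 13 were above (50%, beside 19% of all genes) and 8 below (30.8%, beside 20.4%). Those below included Mfap5 (-0.29), Postn (-0.19) and Mfap4 (-0.18), and Eln was nearly level (0.06). Of the 26, 5 are also on the list of very large proteins, and without them the median was 0.03.

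Genes of very large proteins, a list of 136 written after their values had been seen, were above 0 in 69 of the 69 that were compared. The median was 0.40, and 65 had an interval above 0 (94.2%, beside 19% of all genes). Past 1.5-fold were 13 of the 69, where 77 of all 8807 genes (0.874%) were higher by this much. Put the other way, the list held 16.9% of the 77 higher genes and 69 of the 8807 genes compared. The direction was the same for all 69 under each scaling tried. Fat1, a giant cadherin, had 27649 with In-Cl, 17486 with DPN, 20954 with E2, 19016 in hypoxia and 16001 in the control (0.66, interval 0.63 to 0.69). Lrp1, an endocytic receptor, had 20240.1, 12747, 14971, 14847 and 10397 in the same order (0.67). For both the In-Cl library was the highest and DPN lay between control and hypoxia.

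Other members of this list act in quite different places. Hmcn1, an extracellular matrix protein, had 337 with In-Cl and 182 with DPN (0.88). Utrn, the dystrophin relative, had 5552 and 3585 (0.63). Dync1h1, the motor subunit of cytoplasmic dynein, had 14441 and 9627 (0.585, and just short of 1.5-fold with a pseudocount of 10), Ubr4, a ubiquitin ligase, 4450.3 and 2865 (0.64), and Atm, a kinase of DNA damage signalling, 572 and 368 (0.64). The smallest difference was that of Dmd (0.03, interval -0.14 to 0.20). Against hypoxia the list's medians were 0.41 (In-Cl), -0.04 (DPN) and 0.09 (E2), and In-Cl was the highest of the 5 libraries for 62 of the 69, beside 23.1% of all genes compared. A list written from these values gives no independent support for its direction.

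**Figure D4:**
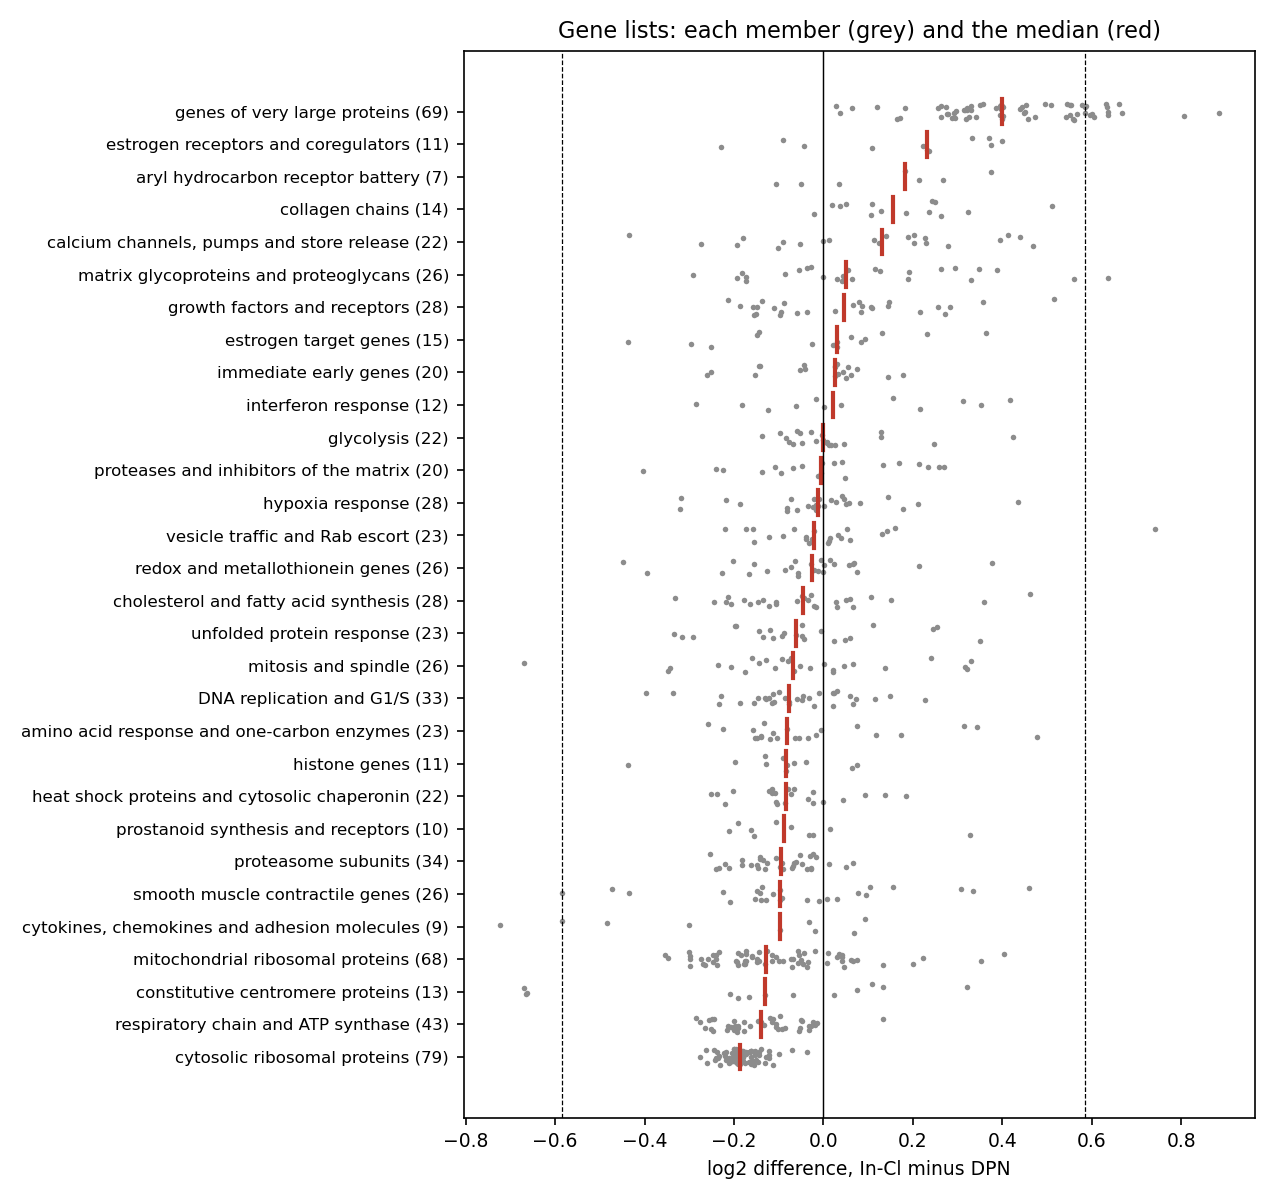
Each grey point is 1 gene, placed by its log2 difference, In-Cl minus DPN, and each red bar is a list's median, with the number of genes compared in brackets. Dashed lines mark 1.5-fold. Genes of very large proteins lie at the top (median 0.40) and cytosolic ribosomal proteins at the bottom (median -0.19).

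Cytosolic ribosomal proteins were lower with In-Cl in 79 of 79 genes, each with an interval below 0 (20.4% of all genes had one). The median was -0.19 and 0 genes passed 1.5-fold, so the shift was small and even. Rplp0 had 64364 with In-Cl, 73833 with DPN, 70483 with E2, 73833 in hypoxia and 58089 in the control (-0.20), and Rps3 22179, 25372, 25619, 26413 and 22850.5 (-0.19). In-Cl was the lowest of the 4 hypoxic libraries for all 79, and the medians against hypoxia were -0.25 (In-Cl), -0.07 (DPN) and -0.10 (E2). After quantile normalization the median was -0.12, with 74 genes below 0 and 4 above.

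Genes of other protein complexes lay mostly on the same side. Over all genes 51.4% were below 0, and 20.4% by interval. Of 43 genes of the respiratory chain and ATP synthase 42 were below 0 and 30 by interval (69.8%, median -0.14). Ndufa4 was lowest (2589 against 3157, -0.29), and the exception was Sdha, the flavoprotein of complex II (0.13). Of 34 proteasome subunits 31 were below 0 and 16 by interval (47.1%, median -0.09). Of 68 mitochondrial ribosomal proteins 52 were below 0 and 24 by interval (35.3%, median -0.13), from Mrpl17 (-0.35) to Mrps22 (0.40). The share of ribosomal RNA rows differed between the In-Cl and DPN libraries as given above (3.65% and 4.67%), and with each library rescaled to an equal total without those rows the medians were -0.17 for cytosolic ribosomal proteins and 0.41 for very large proteins. The part of RNA quality or transcript length in these shifts was not tested.

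**Figure D5:**
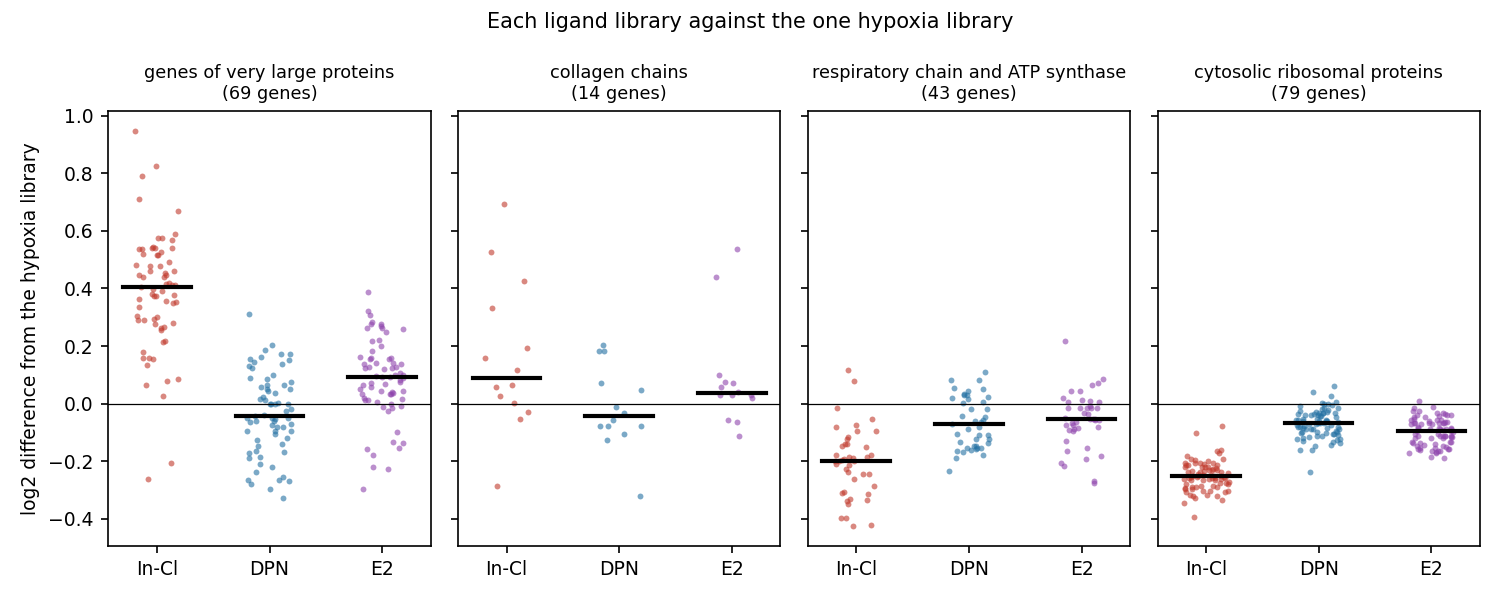
The vertical axis gives the log2 difference of each ligand library from the hypoxia library, each point is 1 gene and each black bar is the median. For very large proteins the medians are 0.41 (In-Cl), -0.04 (DPN) and 0.09 (E2), and for cytosolic ribosomal proteins they are -0.25, -0.07 and -0.10.

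Cell division genes were mixed. Of 26 mitotic genes 16 were below 0 and 10 above. By interval 6 were below (23.1%) and 5 above (19.2%), near the 20.4% and 19% of all genes. The median was -0.07, and -0.08 without the 3 members that are also on the list of very large proteins. Cenpa was the 1 past 1.5-fold, with 210.1 with In-Cl, 335 with DPN, 299 with E2, 266 in hypoxia and 330 in the control (-0.67, interval -0.93 to -0.41). Ccnb1 (cyclin B1) was -0.34 and Ube2c, the ubiquitin conjugating enzyme of mitotic exit, -0.35, while Mki67 was 0.33 higher. A list of 13 centromere proteins was also written after values had been seen. In it 8 were below 0 and 5 above, 3 and 1 by interval (23.1% and 7.69%, beside 20.4% and 19% of all genes). The 3 below by interval, Cenpa, Cenpm (-0.67) and Cenpq (-0.66), were also past 1.5-fold (0.318% of all genes were lower by this much). The 1 above was the very large Cenpf (0.32). Cenpa, Cenpm and Cenpq are among the 15 lowest named genes, so this list gives no independent support for its direction. Of 33 genes of DNA replication and G1/S 23 were below 0 and 10 by interval (30.3%, beside 20.4% of all genes), with a median of -0.08.

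Inflammatory genes at this abundance were few. Of 9 cytokines, chemokines and adhesion molecules 7 were below 0 and 4 by interval (44.4%, beside 20.4% of all genes), and C4a and Il6 passed 1.5-fold (0.318% of all genes were lower by this much). The median was -0.10, and -0.02 among members with a mean of 500 or more. Il6, interleukin 6, had 130.2 with In-Cl, 196 with DPN, 191 with E2, 170.4 in hypoxia and 124 in the control (-0.585, interval -0.92 to -0.26). Il6 stands at the limit and fell short of it when centred (-0.579), with a pseudocount of 10 (-0.554) and with equal totals (-0.573). Tnf had 560.4 with In-Cl and 784 with DPN (-0.48), but Lta next to it had the same values in 4 of the libraries and the neighbouring Nfkbil1 was -0.42, so the reads of Tnf and Lta cannot be told apart. Icam1 (-0.02) and Nfkb1 (0.07) were level, and the chemokine Cxcl12 had 11166 with In-Cl and 10469 with DPN against 8011 in hypoxia. Of 12 interferon response genes 7 were above 0 (48.4% of all genes were), with a median of 0.02 and Irf1 highest (0.42, interval 0.05 to 0.81).

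Growth factors and their receptors had no common direction, with 15 of 28 above 0 and 13 below. By interval 11 were above (39.3%, beside 19% of all genes) and 6 below (21.4%, beside 20.4%). The median was 0.05, and 0.03 without the 1 member that is also on the list of very large proteins. The receptors Egfr (234 with In-Cl, 163 with DPN, 0.52), Igf2r (0.36), Igf1r (0.28) and Met (0.27) were higher with In-Cl, while the secreted binding proteins Igfbp7 (-0.15) and Igfbp2 (-0.14) and the receptor Tgfbr2 (-0.11) were lower. In lipid synthesis the fatty acid enzymes Acaca (0.46, interval 0.32 to 0.61) and Fasn (0.36) were higher. The sterol enzymes Fdps (-0.24) and Msmo1 (-0.22) were lower, and 19 of 28 genes were below 0 (51.4% of all genes were). Apart from Egfr and Acaca, the highest of their lists, the growth factor and lipid genes named here were chosen after their values were seen. The part of RNA quality or transcript length in these contrasts was not tested. Of 23 amino acid response genes 17 were below 0 and 9 by interval (39.1%, beside 20.4% of all genes), among them Asns (-0.14) and Phgdh (-0.14). The amino acid transporter Slc7a2 was higher (831 against 597, 0.48). In the redox list Cbr1 (-0.45) and Gclm, a subunit of the enzyme that starts glutathione synthesis (-0.39), were lowest, and Mt1a, a metallothionein, was highest (0.38, interval 0.10 to 0.67). Lnpep, an aminopeptidase that travels in vesicles, was the 1 of 23 vesicle traffic genes past 1.5-fold (596 against 356, 0.74).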

How the data were processed

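RNA was measured by RNA-seq in 5 libraries of rat vascular smooth muscle cells, prepared from total RNA with the SMARTer Stranded kit, per the labels' protocols. Each library has 1 deposited table of log2 values over 17048 rows, made by the authors with TopHat, edgeR and build rn6, as the submitters' processing notes list them; counter, annotation, use of strand and versions are not given there. The log2 values behave as log2 of an adjusted read count plus 1. Low linear values came in equal steps of 1 read, within 0.2 read for 89.4% of low values in the control, 99.2% with E2 and 100% in the other 3 libraries (rows up to 2.5 reads), so approximate reads were the value divided by that step. The control's reads are thus the least certain.

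The difference is In-Cl minus DPN on the deposited log2 scale, and a gene was called at 1.5-fold or 2-fold. No count model was fitted, since there is 1 library per condition. Intervals are 95% exact Clopper-Pearson intervals of the share of reads and cover counting error only; without molecular identifiers, reads may repeat a molecule. The named genes are the 15 each way with the largest difference at the interval bound nearest 0 (uncharacterised symbols and small RNAs left out), the highest, the lowest and every called gene of each list, genes with the ligands 0.32 or more (log2) on opposite sides of hypoxia, and Ptgs2, Ptgs1, Ptges, Esr1, Esr2 and Gper1. Further genes in the text, mostly list members, were chosen after their values were seen. The members and the 34 lists were chosen with earlier results of these data known, and 3 more lists were written after the values were seen. Runs of neighbours follow the row order of the deposited values. Promoters and positions on chromosomes come from RefSeq tables of build GRCr8, matched by symbol (8663 genes in the gene table). Python 3.11.15, numpy 2.4.6, pandas 2.3.3, scipy 1.17.1 and matplotlib 3.10.9 were used, and the scripts were tested on simulated data. Alternatives were other scalings, a pseudocount of 10, a minimum mean of 500 or none, summed rows, the 7 genes kept in, and lists or neighbours left out. Of the lists, those for proteases, immediate early genes, the unfolded protein response, heat shock proteins and histones had medians of -0.00, 0.03, -0.06, -0.08 and -0.08, with 0 genes called in them. By interval, 30%, 20%, 56.5%, 63.6% and 45.5% of their genes were below 0 in the same order, beside 20.4% of all genes. Above 0 by interval were 20%, 10%, 13%, 9.09% and 0%, beside 19% of all genes. Values of some genes are not reported here.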

Additional observations from a re-analysis of the deposited data

How the results depend on the processing

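No gene called at 1.5-fold and named changed sign under the alternatives run, but the balance of the counts past 2-fold did change. With a minimum mean of 500 the counts past 1.5-fold were 19 higher and 2 lower, and past 2-fold 1 and 1. With no filter beyond detection they were 1102 and 863, and 492 and 580, so more genes were then lower than higher at 2-fold, the added genes having a mean under 100. Calling at 2-fold in place of 1.5-fold left 8 and 3. A pseudocount of 10 left 17 lower genes at 1.5-fold. Keeping the 7 neighbouring genes gave 15 genes past 2-fold higher, and leaving out called genes within 5 rows of another, chosen after seeing the data, gave 3 higher and 1 lower. The other 34 counts recomputed stayed within 1.5 times. The ribosomal protein median was -0.12 after quantile normalization and -0.17 with equal totals without ribosomal RNA rows. With no filter the medians were -0.66 for endothelial, -0.39 for glial and -1.07 for epithelial markers, all at few reads, and at a minimum of 500 the centromere list, then Cenpf alone, stood at 0.32. Of the differences of single named genes 665 recomputed values moved by less than the counting interval allows and 6 moved by more (Rpl27a reached 0.08 after quantile normalization, Myot 0.87 with its rows summed). The medians of glycolysis, protease, interferon, endothelial and epithelial genes, all near 0, changed sign with at least 1 scaling. Il6 and Actg2, at the limit of 1.5-fold, were lost under 3 alternatives each, Golgb1 under 2 and Dync1h1 under 1. At a minimum of 500 the calcium median was 0.01 and that of cytokines -0.02, and the fibroblast median was -0.03 in place of 0.09. The correction for transcript length was not run, as the tables used give no transcript lengths for the files' build. No paired analysis was possible because each condition is 1 library. With 1 library per condition, no difference can be separated from the spread between cultures, and genes of 100 to 200 adjusted reads, where 4.5% passed 1.5-fold, are the least precise.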

Other observations

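Regulators of G-protein signalling, which speed the inactivation of G proteins behind vasoconstrictor and other receptors, were looked at after Rgs2 had been named. Of the 7 other family members compared, 2 were at least 1.5-fold lower with In-Cl than with DPN (0.318% of all genes were), and 5 in all were below 0 (51.4% of all genes were). Rgs17 had 79.9 with In-Cl, 124 with DPN, 104 with E2, 108 in hypoxia and 83.9 in the control (-0.63). Rgs8 had 92.7, 139.6, 72.9, 126 and 70.1 in the same order (-0.585). Both stand near the abundance limit, and Rgs8 at the limit of 1.5-fold. Among the 1155 genes with a mean of 100 to 200, 18 were lower by this much, a larger share than over all genes. Rgs19 (-0.26) and Rgs3 (-0.10) were also below 0, and Rgs4 was level at 0.03. In no member was the In-Cl library the highest of the 5.

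Among 6 uncharacterised loci past 1.5-fold, LOC102723236 had 800.2 with In-Cl, 1838 with DPN, 1767 with E2, 1018 in hypoxia and 2037 in the control (-1.20), so hypoxia and In-Cl were low and the other 3 libraries high. RGD1305298, the neighbour of Dync1h1, had 1302, 554, 1187, 1319.6 and 1463 (1.23), so the DPN library alone was low.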
